A study of Triticum aestivum with 6 samples.

Results

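In the crown of 1 grass-clump dwarf wheat line, crt/KU-2025, 49 of the 37826 probes of a 1-color wheat array gave a clear signal, while the same probes stayed at the bottom of the scale in the dwarf line Ldn/KU-2025 and in the wild-type (WT) line Ldn/KU-2059. A probe was taken when its scaled signal was under 30 on all 4 arrays of Ldn/KU-2025 and WT, at least 1000 on both arrays of crt/KU-2025, and no more than 4-fold apart between those 2 arrays. These limits use every array, so the signals of the 49 probes by line are given as a description, without a test. "On" and "dark" are used below only for these signal limits: a dark probe may still have a transcript too rare for the array to show. Whether each probe matches the transcript sequence of every line was not tested.

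The lines are synthetic hexaploid wheats, made by crossing a tetraploid wheat, which brings the A and B genomes, with Aegilops tauschii, which brings the D genome. The labels give crt/KU-2025 as wheat-T. carthlicum/Ae. tauschii KU2025 and Ldn/KU-2025 as wheat-Langdon/Ae. tauschii KU2025, both with a grass-clump dwarf phenotype, and WT as wheat-Langdon/Ae. tauschii KU2059 with the wild-type phenotype. The dwarf lines therefore share the D-genome parent, Ldn/KU-2025 and WT share the tetraploid parent Langdon, and no normal line with the T. carthlicum parent was analysed here. Total RNA came from crown tissue, the base of the shoot that holds the shoot apical meristem, of plants aged 8 weeks at 24°C in days of 18 h light and 6 h dark, and each line had 2 arrays. The study's methods call the replicates independent experiments, and neither they nor the labels say whether these were separate plants, so p-values measure the spread between these arrays.

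Hybrid dwarfism and necrosis in wheat arise when genes of the parents, harmless apart, meet in one plant. The type II necrosis group to which these dwarf lines belong is known for a defense-like response at low temperature. At normal temperature, as on these arrays, the study describes no necrosis. Its summary reports no rise of defense-related genes there, while its array results name many as raised in crt/KU-2025. Plant defense runs through several layers. Receptors with a nucleotide-binding site and leucine-rich repeats (NBS-LRR) sense pathogen proteins, F-box proteins mark regulators for degradation, and pathogenesis-related enzymes such as beta-glucanases attack fungal walls. Detoxifying enzymes such as glutathione S-transferases and phenol-modifying O-methyltransferases often act beside them.

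Several properties of the arrays bear on every value that follows. The crt/KU-2025 arrays had a slide and a scan to themselves, and the 4 arrays of Ldn/KU-2025 and WT shared another slide, so that the line, its tetraploid parent and its slide cannot be told apart. In 7 spike-in controls well above background, the scaled log2 signals of crt/KU-2025 minus WT were between -0.29 and 0.55. The share of probes well above background was 75.4% and 76.6% in crt/KU-2025, against 77.6% and 76.4% in Ldn/KU-2025 and 75.1% and 75.2% in WT. The arrays of crt/KU-2025 differed from each other in photosynthesis transcripts. The summed signal of 37 photosynthesis probes was 22729 on replicate 1 and 246600.3 on replicate 2 of crt/KU-2025, against 54520.0 and 57146 in Ldn/KU-2025 and 12477 and 12021 in WT. Of these probes, 36 were higher on replicate 2 than on replicate 1 of crt/KU-2025, with a median log2 difference of 3.89, and 31 of the 37 were well above background on both arrays of crt/KU-2025. All 37 had been listed by the study as raised in Ldn/KU-2025 on these arrays.

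Signals were also read for 8 probes of AP1-like MADS-box, SPL and AP2-like transcription factors. The study had named all 8 on these arrays as lowered in a dwarf line, the SPL and AP2-like probes in crt/KU-2025 and the MADS-box probes in Ldn/KU-2025. A low sum in crt/KU-2025 thus partly follows from the choice, and these probes cannot serve as a check of its tissue. Their summed signal was 2329 and 2557 in crt/KU-2025, against 19232 and 18243 in Ldn/KU-2025 and 19242 and 19574 in WT. All 8 were well above background on both arrays of Ldn/KU-2025 and of WT, and 3 of the 8 were so in crt/KU-2025. Of the MADS-box probes, wheat0130Contig14238 had 8.4 and 13.3 in crt/KU-2025, against 178.8 and 158.9 in Ldn/KU-2025 and 158.3 and 169.9 in WT. In the same order, rwhfl48m16 had 5.9 and 10.8, 594.1 and 581.6, and 678.2 and 790.7. The last, wheat0130Contig14728, had 1531.5 and 1751.8, 4252.7 and 4056.4, and 3924.9 and 4114.0. The difference from the study's statement on Ldn/KU-2025 was not tested. In whole crowns, fewer cells of a type and less RNA per cell cannot be told apart. The part of these differences in the signals of the 49 probes was not tested.

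Among all probes, 12964 reached 1000 on both arrays of crt/KU-2025, 12817 of them within 4-fold. Of these 12817, 10992 (85.8%) also reached 1000 on at least 1 array of Ldn/KU-2025 or WT. Another 1693 had their highest Ldn/KU-2025 or WT signal between 100 and 1000, and 83 had it between 30 and 100. The 49 probes were the remaining 0.38%. Seen from the other side, 7465 probes were dark on all 4 arrays of Ldn/KU-2025 and WT, and 6547 of these (87.7%) were also under 30 on at least 1 array of crt/KU-2025. The lower crt/KU-2025 signal lay between 30 and 100 for 600 of the dark probes and between 100 and 1000 for 269, so that the 49 probes form the upper end of a continuous range.

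**Figure D1:**
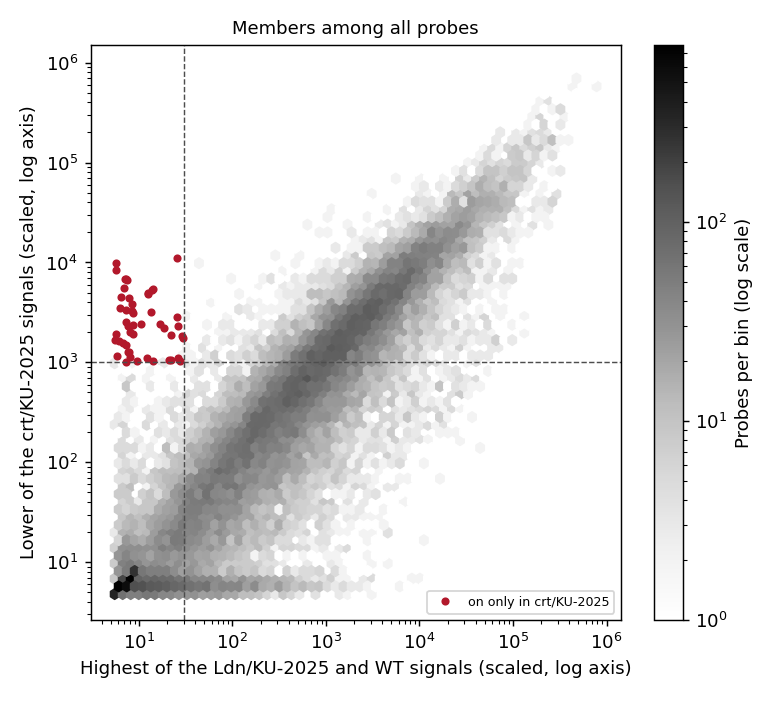
Each probe is placed by its highest signal on the 4 arrays of Ldn/KU-2025 and WT (horizontal, scaled signal, log axis) and the lower of its crt/KU-2025 signals (vertical, scaled signal, log axis), with grey shading for the number of probes per bin and dashed lines at the limits of 30 and 1000. The 49 probes on only in crt/KU-2025 (red) fill the upper left corner, away from the diagonal on which most of the 37826 probes lie.

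With the lines exchanged, the same limits gave fewer probes. No probe (0) was on only in Ldn/KU-2025, and 1 probe was on only in WT. Of the probes dark in a single line, 38 belonged to crt/KU-2025, 0 to Ldn/KU-2025 and 2 to WT. The counts for crt/KU-2025 in both directions were thus the highest of the 6, in the line that stands on its own slide and has a tetraploid parent of its own.

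**Figure D2:**
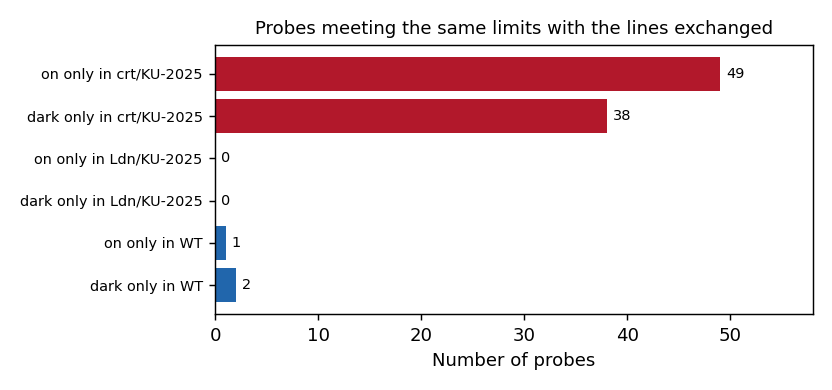
The bars give the number of probes that met the limits of 30 and 1000 with each line in turn as the one that was on or dark, crt/KU-2025 at the top and WT at the bottom. The line crt/KU-2025 had 49 probes on and 38 dark, against none (0) either way in Ldn/KU-2025, with 1 on and 2 dark in WT.

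On the arrays of crt/KU-2025, the 49 probes had a lowest signal of 1099, a median of 2878 and a highest of 11577 on replicate 1, and 1016, 2418 and 11173 on replicate 2. On the arrays of Ldn/KU-2025, the lowest, median and highest were 4.8, 6.5 and 29.0 on replicate 1 and 4.9, 6.3 and 29.1 on replicate 2. On the WT arrays they were 5.5, 7.0 and 26.1 on replicate 1 and 5.6, 7.2 and 29.3 on replicate 2. Among all probes of an array, the 49 stood between the 64.1st and the 92.4th percentile in crt/KU-2025, in the middle to upper range and below the brightest probes. Their mean in crt/KU-2025 was at least 5000 for 13 probes, between 2000 and 5000 for 18 and under 2000 for 18. Signals of different probes depend on the probe and were not read as amounts of transcript.

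**Figure D3:**
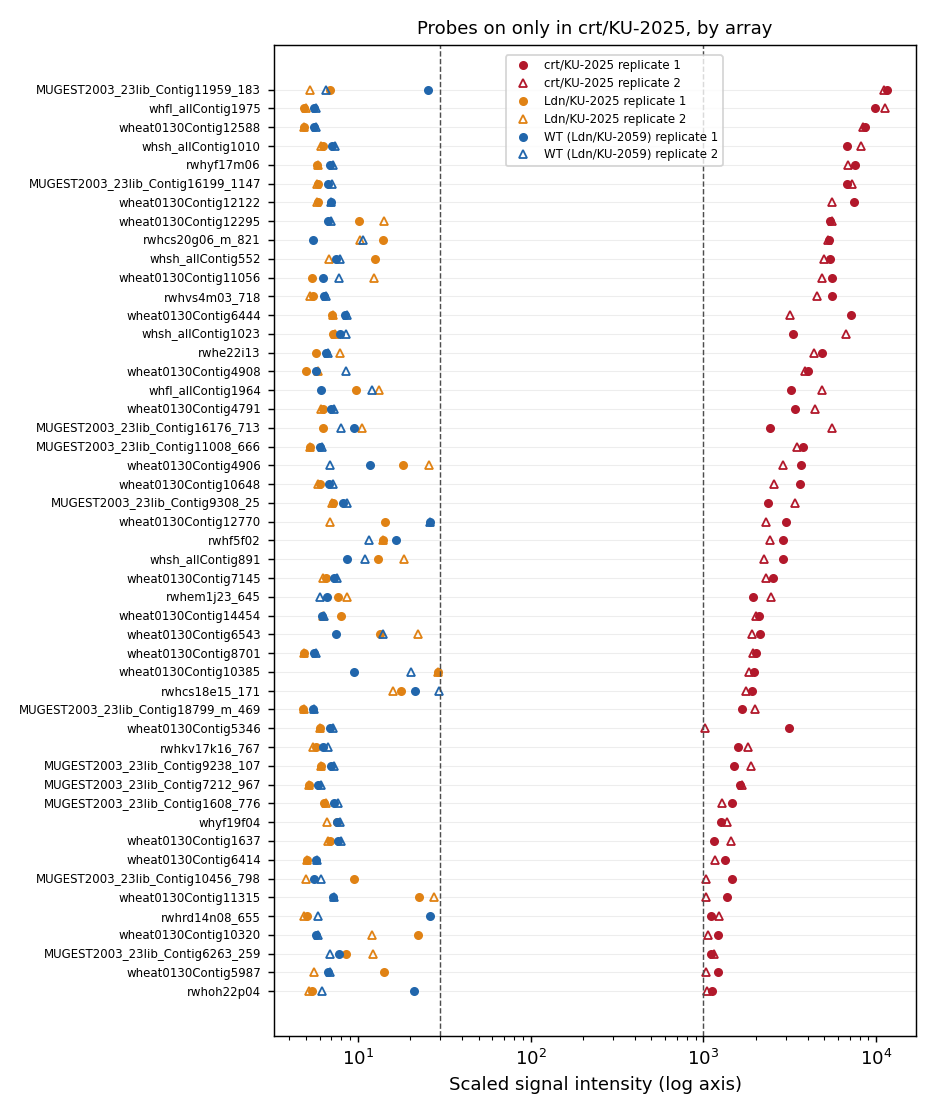
Each row is 1 of the 49 probes, in order of its mean log2 signal in crt/KU-2025, with 1 symbol per array (red crt/KU-2025, orange Ldn/KU-2025, blue WT; filled replicate 1, open replicate 2) on a log axis of scaled signal, and dashed lines at 30 and 1000. All crt/KU-2025 symbols lie between 1016 and 11577, and all Ldn/KU-2025 and WT symbols between 4.8 and 29.3.

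The dark signals of most of the probes lay in the range of the negative control spots. The scanner software marked all 49 as well above background on both arrays of crt/KU-2025 and 0 of them on any array of Ldn/KU-2025 or WT, and no spot of the 49 was saturated or flagged as uneven. Of the 49, 31 and 34 were at or under the 95th percentile of the 153 negative control spots on the Ldn/KU-2025 arrays, and 39 and 41 on the WT arrays. None (0) were on the arrays of crt/KU-2025, where the highest negative control spots read 39.7 and 42.1. All 4 dark signals were under 10 for 29 of the probes. The local background around the 49 spots was also alike, with a median of 22 and 25 in crt/KU-2025, against 25 and 24 in Ldn/KU-2025 and 23 and 24 in WT.

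Many of the probes showed a faint signal on at least 1 array of the other lines. The software's weaker mark, positive and significantly over background, was set for 39 of the 98 spots of these probes on Ldn/KU-2025 arrays and for 27 of 98 on WT arrays. It was set on none of the 4 arrays for 23 probes and on all 4 for 7 probes, which include the 3 beta-glucanase probes described below. At least 1 dark signal reached 20 for 10 of the 49.

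Because no member was well above background in Ldn/KU-2025 or WT, its fold change has only a lower bound, set by the faintest signals that an array marked as well above background, which lay between 23.9 and 27.9 on those arrays. The lower bound was 95.5-fold at the median against WT, with a range of 39.2 to 409 over the 49 probes, and 109.8-fold against Ldn/KU-2025, with a range of 45.1 to 470.4. In the limma fit across all probes, where a call needed a 3-fold change and a Benjamini-Hochberg adjusted p under 0.05, 49 of 49 were called up in crt/KU-2025 against WT, beside 11.8% of all probes. Against Ldn/KU-2025, 49 of 49 were called up beside 9.39% of all probes. The limits used the same contrasts, so nothing was read from either count. The median fitted log2 ratio of the members was 8.40 to WT and 8.44 to Ldn/KU-2025, against 0.10 and 0.11 over all probes, and it rests on dark signals that the array could not measure. Both ratios use the same crt/KU-2025 arrays.

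Between Ldn/KU-2025 and WT, where all values were under 30, the median fitted log2 ratio of the 49 probes was -0.21, against -0.02 over all probes. The lowest signals that any probe had on these arrays differed by -0.20 on the same scale. Every Ldn/KU-2025 signal was below every WT signal for 27 of the 49 and above for 8. The same share over all probes was not counted, so nothing was read from these counts. A single member, wheat0130Contig11315, was called up in Ldn/KU-2025 against WT, beside 0.97% of all probes. Its signals were 1374 and 1028 in crt/KU-2025, against 22.7 and 27.7 in Ldn/KU-2025 and 7.2 and 7.3 in WT. The signals of Ldn/KU-2025 and WT thus did not overlap, but neither line was well above background. The used rows of the study's list give no description for it.

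The replicate arrays of crt/KU-2025 gave like signals for most members. Their ratio, higher over lower, had a median of 1.14 over the 49 probes and of 1.10 over all 12964 probes that reached 1000 on both arrays. It was at most 1.5 for 45 of the 49 (91.8%), beside 94.1% of those 12964. Across the 49 probes, the log2 signals of the 2 arrays had a Pearson's r of 0.90 and a Spearman's rho of 0.89, a description over probes that share the same 2 RNA samples. The 49 probes summed to 174063 on replicate 1 and 171104 on replicate 2, and 18 were higher on replicate 2. The limits on both arrays barred members that differed as widely as most of the photosynthesis probes, so this agreement describes the choice.

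**Figure D4:**
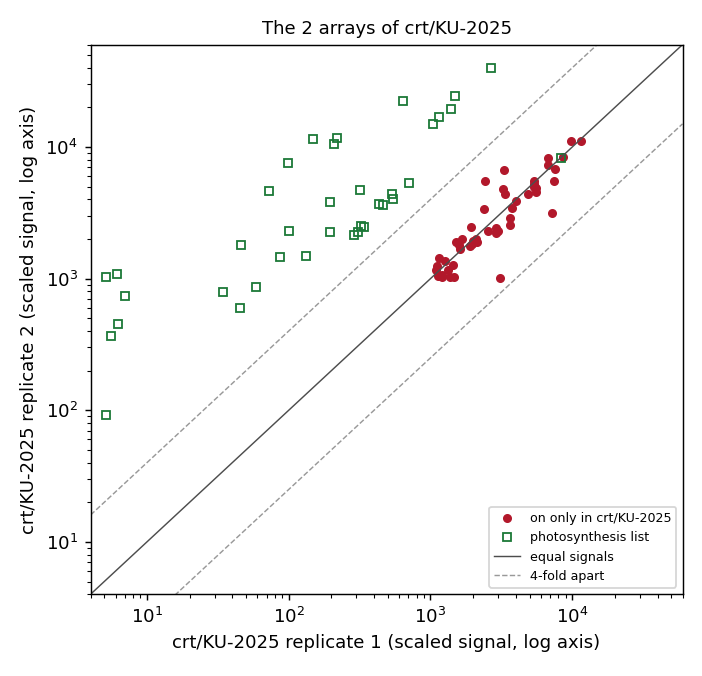
Signals on replicate 1 (horizontal) and replicate 2 (vertical) of crt/KU-2025, both scaled and on log axes, for the 49 probes (red) and 37 photosynthesis probes (green squares), with a solid line for equal signals and dashed lines for a 4-fold difference. The 49 probes lie along the solid line with 45 within 1.5-fold, and 36 of the 37 photosynthesis probes lie above it.

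The members that differed over 2-fold between those arrays were 4, and they went both ways. The signals on replicates 1 and 2 of crt/KU-2025 were 3118 and 1016 for wheat0130Contig5346, the widest ratio at 3.07. They were 2410 and 5533 for MUGEST2003_23lib_Contig16176_713, with a ratio of 2.30. The other two, named after their values were seen, were wheat0130Contig6444 with 7151 and 3152, and whsh_allContig1023 with 3287 and 6664. No probe (0) was lost by the 4-fold limit alone.

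What the 49 probes encode is known only in part. Descriptions were taken from the study's list of probes raised in crt/KU-2025, of which the first 1096 rows were used. The rest of that list was not used, so counts of described members and of family probes below are incomplete. Of the 49, 25 fell within the range of these rows, 18 were listed there, 13 had a description as a protein and 5 had none, while 7 were not listed. The other 24 lay beyond the rows used. Because the list was chosen by the study on these arrays, a description gives a name and no independent support.

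Beta-glucanases cut the beta-glucan of fungal walls and the callose of the plant's own walls. Among the 13 members described as a protein, they were the enzyme named most often, with 3 members. The probe rwhf5f02, described as a glucan endo-1,3-beta-D-glucosidase, had 2883 and 2418 in crt/KU-2025, against 14 and 14 in Ldn/KU-2025 and 16.7 and 11.6 in WT. The probe whsh_allContig891, a glucan endo-1,3-beta-glucosidase GII, had 2878 and 2228 in crt/KU-2025, against 13 and 18.6 in Ldn/KU-2025 and 8.7 and 11 in WT. The probe wheat0130Contig10385, an endo-1,3-beta-glucanase, had 1966 and 1833 in crt/KU-2025, against 29.0 and 29.1 in Ldn/KU-2025 and 9.5 and 20.2 in WT. In all 3, both crt/KU-2025 arrays stood far above the other 4, as the limits require. In the last, the Ldn/KU-2025 signals came just under the limit of 30. The lower bounds against WT were 95.5-fold, 91.5-fold and 68.7-fold in this order, and whether the 3 probes report different genes was not tested.

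Beside the glucanase signals stood those of 3 pathogenesis-related probes, 2 for PR1 and 1 for PR4, defense markers none of which is a member. They summed to 46136 and 53336 in crt/KU-2025, against 1896 and 2195 in Ldn/KU-2025 and 936.9 and 945.9 in WT. All 3 were well above background on both arrays of crt/KU-2025, against 1 in Ldn/KU-2025 and 1 in WT. Most of each sum came from 1 PR1 probe, wheat0130Contig6231, with 41366 and 39735 in crt/KU-2025. The PR4 probe, wheat0130Contig9215, was uneven there, with 4200 on replicate 1 and 12803 on replicate 2. The study chose these probes on the same arrays. By qRT-PCR on crowns of younger plants, it reported PR1 and PR4 as raised in crt/KU-2025 at low temperature but not at normal temperature. The difference from the array signals was not tested.

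Enzymes of secondary metabolism and detoxification made up another set. The probe wheat0130Contig4791 is described as O-methyltransferase ZRP4, an enzyme named in maize that adds methyl groups to phenolic compounds. It had 3377 and 4405 in crt/KU-2025, against 6.3 and 6.1 in Ldn/KU-2025 and 7.0 and 7.3 in WT. Its lower bound against WT was 139.5-fold, and it carried neither mark for a signal over background on the 4 dark arrays. The probe MUGEST2003_23lib_Contig9238_107, described as glutathione S-transferase T3, which joins glutathione to reactive compounds, had 1507 and 1893 in crt/KU-2025, against 6.1 and 6.1 in Ldn/KU-2025 and 7.0 and 7.3 in WT. Its lower bound against WT was 61.1-fold. The probe wheat0130Contig6543, described as SRG1, the name of a senescence-related oxygenase of Arabidopsis, had 2137 and 1897 in crt/KU-2025, against 13.4 and 22.2 in Ldn/KU-2025 and 7.5 and 14 in WT. Its lower bound was 72.8-fold, and its dark signals were uneven between replicates.

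Recognition and protein turnover were represented by single probes. The probe MUGEST2003_23lib_Contig7212_967, described as an NBS-LRR class disease resistance protein, had 1626 and 1671 in crt/KU-2025, against 5.2 and 5.2 in Ldn/KU-2025 and 5.9 and 6.1 in WT. Its crt/KU-2025 mean was 1649 ± 31.8 (SD, n = 2), one of the tightest pairs among the members, and its lower bound against WT was 59.6-fold. The probe rwhoh22p04, described as a probable F-box protein, had 1122 and 1051 in crt/KU-2025, against 5.4 and 5.2 in Ldn/KU-2025 and 21.0 and 6.2 in WT. It had the smallest lower bound of all 49, at 39.2-fold, and its WT replicates differed from each other more than Ldn/KU-2025 differed from the lower of them. The probe rwhkv17k16_767, a hypothetical protein annotated to the SCF ubiquitin ligase complex and to defense response, had 1581 and 1816 in crt/KU-2025, against 5.7 and 5.5 in Ldn/KU-2025 and 6.3 and 6.7 in WT. SCF complexes use an F-box protein to choose their substrate, and this probe had a lower bound of 61.3-fold against WT.

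The remaining 4 described members carry names without a known role here. The probe whsh_allContig1010, an unnamed protein product, had 6741 and 8186 in crt/KU-2025, against 6.3 and 6.1 in Ldn/KU-2025 and 7.1 and 7.4 in WT. The probe wheat0130Contig7145, matched to a rice locus, had 2533 and 2297 in crt/KU-2025, against 6.5 and 6.3 in Ldn/KU-2025 and 7.3 and 7.6 in WT. Both were at the floor of the other lines, with lower bounds against WT of 268.6-fold and 87.2-fold. The probe rwhem1j23_645, a hypothetical protein annotated to the membrane, had 1945 and 2461 in crt/KU-2025, against 7.7 and 8.7 in Ldn/KU-2025 and 6.6 and 6.0 in WT. The probe whyf19f04, another hypothetical protein, had 1259 and 1361 in crt/KU-2025, against 7.6 and 6.6 in Ldn/KU-2025 and 7.6 and 7.9 in WT. Their lower bounds against WT were 79.1-fold and 47.3-fold.

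Of the 5 members with the highest mean log2 signal in crt/KU-2025, 1 had a description, whsh_allContig1010 above, and the other four lay beyond the rows used. The first, MUGEST2003_23lib_Contig11959_183, averaged 11319 ± 364.8 in crt/KU-2025, against 6.1 ± 1.13 in Ldn/KU-2025 and 15.9 ± 13.3 in WT (SD, n = 2 each). The wide WT error came from a signal of 25.3 on WT replicate 1 against 6.5 on replicate 2. The probe whfl_allContig1975 had 9802 and 11173 in crt/KU-2025, against 4.9 and 5.0 in Ldn/KU-2025 and 5.6 and 5.7 in WT, with a lower bound against WT of 378-fold. The probe wheat0130Contig12588 had 8592 and 8352 in crt/KU-2025, against 4.9 and 4.9 in Ldn/KU-2025 and 5.6 and 5.7 in WT. The dark signals of both were near the lowest of any probe on the same array, which lay between 4.8 and 5.5. The fifth, rwhyf17m06, had 7518 and 6814 in crt/KU-2025, against 5.8 and 5.9 in Ldn/KU-2025 and 6.9 and 7.2 in WT.

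At the low end, rwhoh22p04 above was joined by wheat0130Contig5987 and MUGEST2003_23lib_Contig6263_259. The probe wheat0130Contig5987 had 1210 and 1033 in crt/KU-2025, against 14.2 and 5.6 in Ldn/KU-2025 and 6.7 and 6.9 in WT. The probe MUGEST2003_23lib_Contig6263_259, listed without a description, had 1099 and 1155 in crt/KU-2025, against 8.5 and 12.2 in Ldn/KU-2025 and 7.8 and 6.9 in WT. Their lower bounds against WT were 40.4-fold and 40.7-fold, close to the smallest of the 49.

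Probes just inside and just outside the limits had much the same signals. Just under the limit of 30 stood wheat0130Contig10385, the glucanase above, and rwhcs18e15_171, with 1902 and 1770 in crt/KU-2025, against 17.7 and 15.9 in Ldn/KU-2025 and 21.5 and 29.3 in WT. Just over it, MUGEST2003_23lib_Contig14421_656 had 3091 and 3043 in crt/KU-2025, against 25.3 and 30.7 in Ldn/KU-2025 and 19.3 and 19.3 in WT. The other, wheat0130Contig3042, had 2173 and 1421 in crt/KU-2025, against 12.6 and 31.3 in Ldn/KU-2025 and 17.5 and 21.7 in WT. A single array of Ldn/KU-2025 kept each of these 2 probes out. Just above the limit of 1000 on the lower crt/KU-2025 array were wheat0130Contig5346 with 1016 and wheat0130Contig11315 with 1028. Just below it, wheat0130Contig8582 had 1083 and 970.1 in crt/KU-2025, against 6.7 and 6.9 in Ldn/KU-2025 and 7.5 and 8.0 in WT. The probe whr12d10 had 1074 and 969.6 in crt/KU-2025, against 6.5 and 8.8 in Ldn/KU-2025 and 6.7 and 18.4 in WT.

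A further 46 probes met the limits in crt/KU-2025 and in WT and were left out only because Ldn/KU-2025 reached 30 on at least 1 array. Of the 46, 36 were well above background on both Ldn/KU-2025 arrays. The faintest signals with that mark there were 23.9 and 24.2, under the limit of 30. The choice thus largely fixed the mark on at least 1 of the arrays. The geometric mean of the Ldn/KU-2025 arrays had a median of 58.4 over these probes, with a range of 13.4 to 6682, and 2 probes reached 1000 on both. They include a beta-glucanase, MUGEST2003_23lib_Contig16264_863, with 16922 and 17822 in crt/KU-2025, against 100.4 and 82.6 in Ldn/KU-2025 and 7.5 and 7.7 in WT. They also include a germin, a kind of cell-wall protein, MUGEST2003_23lib_Contig3789_112, with 15644 and 13141 in crt/KU-2025, against 180.7 and 176.8 in Ldn/KU-2025 and 16.3 and 29.8 in WT. For both, Ldn/KU-2025 stood between the other lines without overlap. These probes were named after their values were seen, to show where the limit on Ldn/KU-2025 falls.

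Other probes of the members' families were taken by keyword from the descriptions in the study's lists. The study had chosen the rows of these lists for a change on these arrays. The lists used were of probes raised or lowered in Ldn/KU-2025 and, in part, of those raised in crt/KU-2025. No list of probes lowered in crt/KU-2025 was used. A high share of probes called up in crt/KU-2025, with few called down, therefore follows from the choice. In all, 117 probes fell in 13 keyword families, and 7 of these were among the 49. All 6 beta-glucanase probes were called up in crt/KU-2025 against WT and also against Ldn/KU-2025, beside 11.8% and 9.39% of all probes. Their median log2 ratios were 7.33 and 6.69, against 0.10 and 0.11 over all probes. Among all 37826 probes, 7465 were dark on all arrays of Ldn/KU-2025 and WT. Of the 6, 4 were dark on all arrays of Ldn/KU-2025 and WT: the 3 members and wheat0130Contig6040, which had 92.2 and 103.0 in crt/KU-2025. The last of the 6, MUGEST2003_23lib_Contig7048_526, was present in all lines, with 4152 and 4609 in crt/KU-2025, against 858.7 and 845.5 in Ldn/KU-2025 and 463.3 and 449.4 in WT. These other family probes, and those below, were named after their values were seen. The same enzyme name thus covered probes on in 1 line, probes graded over 3 lines and a probe present in every line.

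Disease resistance descriptions, with wheat0130Contig11279 (RPM1-interacting 4) taken in by keyword, showed the same range. Of 18 such probes, 15 were called up and 2 down in crt/KU-2025 against WT, 13 up and 1 down against Ldn/KU-2025, beside 11.8%, 11.0%, 9.39% and 9.98% of all probes in the same order, and 8 were dark on all arrays of Ldn/KU-2025 and WT. Among those 8, MUGEST2003_23lib_Contig7212_967 alone was a member, and the others had crt/KU-2025 signals between 28.4 and 154.2. The 2 probes called down were rwhyf28g23, also an NBS-LRR description, with 5.4 and 5.1 in crt/KU-2025, against 44.6 and 53.0 in Ldn/KU-2025 and 281.5 and 298.9 in WT, and rwhcs10h11_747, with 6.7 and 6.5 in crt/KU-2025, against 6.0 and 6.3 in Ldn/KU-2025 and 90.8 and 102.8 in WT. Descriptions of 1 family therefore went in both directions.

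Of 26 F-box probes, 26 were called up against WT and 24 against Ldn/KU-2025, with median log2 ratios of 2.81 and 2.65. Over all probes, 11.8% were called up against WT and 9.39% against Ldn/KU-2025, here and for the families that follow. Dark on all arrays of Ldn/KU-2025 and WT were 7 of the 26, with rwhoh22p04 as the single member. Of 13 O-methyltransferase probes, 13 were called up against WT and 10 against Ldn/KU-2025, and 3 were dark in both lines, among them the member wheat0130Contig4791. Another probe with the name ZRP4, rwhh4f04, was graded over the lines, with 1110 and 529.4 in crt/KU-2025, against 105.6 and 117.6 in Ldn/KU-2025 and 30.5 and 28.2 in WT. Of 8 glutathione S-transferase probes, 7 were called up against WT and 6 against Ldn/KU-2025, and the member MUGEST2003_23lib_Contig9238_107 was the 1 dark in both. Peroxidases, germins, chitinases, pathogenesis-related proteins, GDSL, patatin or lipase proteins, cysteine proteases, transposons and auxin-conjugating enzymes had 0 members among the 13 with a description, and the other 36 could not be assigned.

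**Figure D5:**
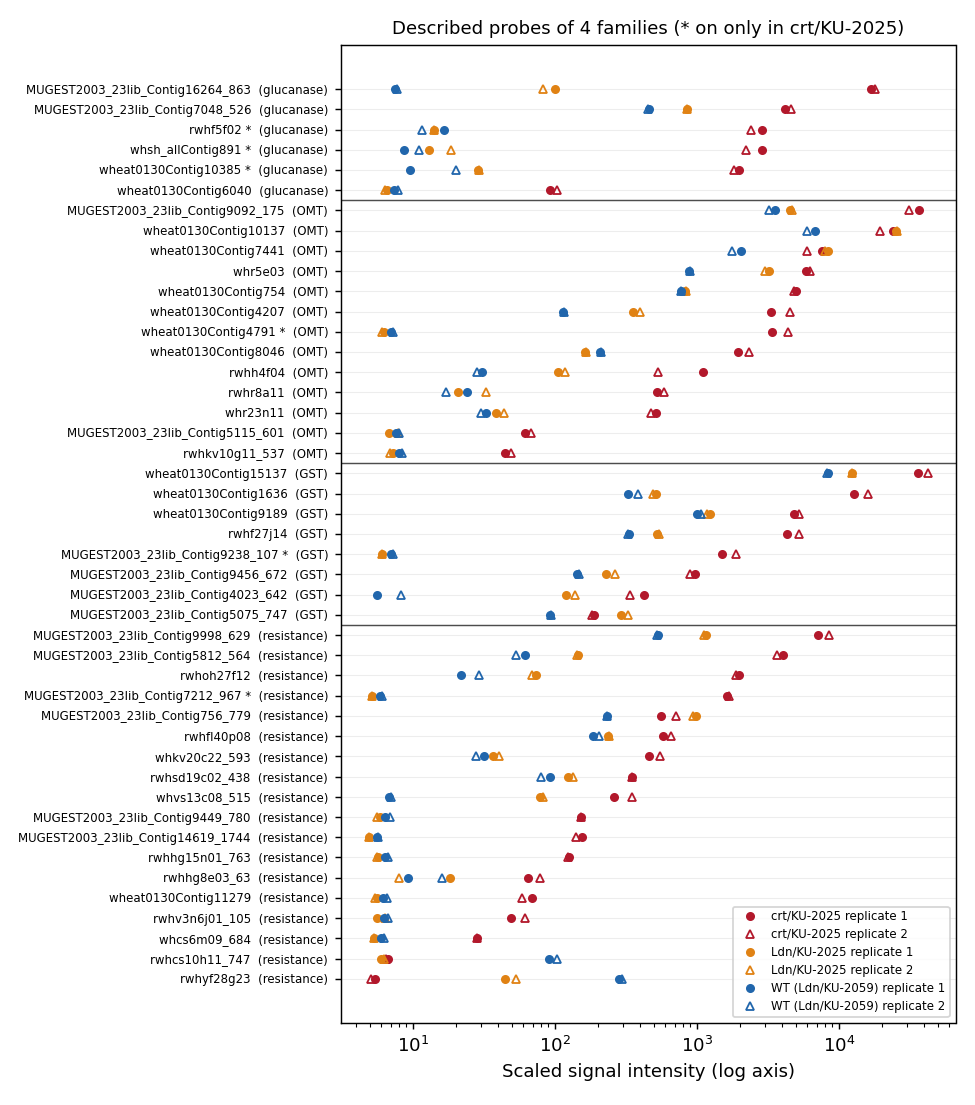
Each row is a probe described as a beta-glucanase, an O-methyltransferase (OMT), a glutathione S-transferase (GST) or a disease resistance protein in the study's lists, with 1 symbol per array (red crt/KU-2025, orange Ldn/KU-2025, blue WT; filled replicate 1, open replicate 2) on a log axis of scaled signal. The disease resistance rows include wheat0130Contig11279, described as RPM1-interacting 4. Stars mark the 6 members, whose Ldn/KU-2025 and WT symbols stay under 30, while many other probes show a signal in all 3 lines.

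Features that played no part in the choice showed how the 49 probes were spread over the array. With the array cut into 4 equal fields, 17 of 9549 probes lay in the upper left, 13 of 9347 in the upper right, 13 of 9559 in the lower left and 6 of 9371 in the lower right. By the start of the probe name, 21 were named wheat0130Contig, 11 were named MUGEST2003_23lib, 4 began with whsh_all and 2 each with whfl_all and rwhcs. These starts made up 42.9%, 22.4%, 8.16%, 4.08% and 4.08% of the members, against 36.9%, 20.1%, 2.58%, 3.41% and 0.30% of all probes. The 49 probes thus came from 14 name groups and from all 4 fields of the array.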

How the data were processed

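The KOMUGI 38k array was hybridized with Cy3-labeled cRNA from the crowns of 3 lines, 2 arrays a line. The authors deposited the processed intensity of each spot, background-subtracted and detrended within the array by Feature Extraction (10.7.3.1 in the file headers, 9.5 in the submitters' processing notes). They also deposited a table of intensity values scaled to 2500 over the mean trimmed of 2% at each end, to which the limits were applied and from which signals are printed. The flags for background, saturation and uneven spots are other columns of the deposited scanner tables. Control spots (1417) were dropped.

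The log2 of the processed intensities, scaled the same way, entered 1 fit of all 6 arrays with the lines as groups (limma 3.58.1, R 4.3.3, lmFit and eBayes), with p-values adjusted over all probes. The fit was tested on simulated data. Tables and figures used Python 3.11.15, numpy 2.4.6, pandas 2.3.3 and matplotlib 3.10.9. The members and the lists were chosen with earlier results of these data known. Named were all members with a description, the 5 highest and 3 lowest by mean log2 signal in crt/KU-2025, and those nearest each limit. The lower bound sets the mean log2 signal of crt/KU-2025 against, on each dim array, whichever is higher, its own signal or the faintest one well above background. The arrays' number limits the precision. Probe names matched 0 entries of the wheat gene table, so no positions or sequences are given.

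The alternatives were other scalings, normexp (offset 50, on median spot signals, since mean signals were not used here), other limits, removal of dim probes, the methods' t-test, a 2-fold call, the replicate number as a block and each array left out.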

Additional observations from a re-analysis of the deposited data

How the results depend on the processing

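The number of probes on only in crt/KU-2025 moved mainly with the limits: it was 86 with a low limit of 60, 97 with a high limit of 500 and 28 with a high limit of 2000, against 49. Without any 1 array it was 51 to 59, all 49 included, which was fixed in advance, since leaving out an array only removes a condition. Other scalings gave 42 (75th percentile) and 44 (quantile), and normexp, with its low limit at the same quantile of the signals, gave 61, of which 46 were among the 49. Probes called up in crt/KU-2025 numbered 4462 against WT and 3552 against Ldn/KU-2025. The counts were 7852 and 6785 at 2-fold, 2482 and 1842 after normexp, and 2583 and 1911 with the methods' t-test after Benjamini-Hochberg adjustment. The members called up stayed 49 and 49 in every alternative except that test, with 38 and 36, and nothing was read from them, since the limits used the same contrasts. Their median log2 ratio to WT was 8.19 with the 75th percentile and 4.37 after normexp, whose offset lifts dark signals, against 8.40. With the replicate number as a block, 4417 and 3502 probes and 49 and 49 members were called up. Differences between same-numbered replicates correlated between lines at -0.07 to 0.03 over probes, so the numbers were not read as pairs. The lower bounds were the same with the floor alone at the median (95.5-fold). With 2 arrays a line and 1 slide for crt/KU-2025, a slide effect cannot be told apart from the line.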

Other observations

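The probe wheat0130Contig9191, the 1 probe on only in WT, had 7.9 and 7.3 in crt/KU-2025, against 6.7 and 6.7 in Ldn/KU-2025 and 18125 and 19429 in WT. The 2 probes on in both dwarf lines and dark only in WT were rwhei10o03_351, with 21674 and 11198 in crt/KU-2025, against 6620 and 6746 in Ldn/KU-2025 and 7.8 and 7.9 in WT, and wheat0130Contig5054, with 3135 and 2592 in crt/KU-2025, against 2378 and 2338 in Ldn/KU-2025 and 5.6 and 9.8 in WT. When the limit of 30 was replaced by the scanner's mark for a signal well above background, 1 probe joined the 49: wheat0130Contig6474, with 10525 and 10138 in crt/KU-2025, against 18.8 and 6.2 in Ldn/KU-2025 and 10.1 and 32.1 in WT. These probes were named after their values were seen.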
